A study of Mus musculus with 6 samples.

Results

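The expression of 10 genes that build and regulate the neuronal cytoskeleton was followed: 3 tubulins (*Tubb3*, *Tubb2b* and *Tuba1a*), 3 microtubule-associated proteins (*Map2*, *Mapt* and *Dcx*), 2 growth-cone proteins (*Stmn2* and *Gap43*) and 2 neurofilament subunits (*Nefl* and *Nefm*). They were taken by symbol, as 10 of the 50508 gene symbols in the expression tables, and all 10 were above 0 in every library. The libraries came from primary neurons of newborn C57Bl/6J mice, a dissociated culture that keeps some glia and progenitors; the labels name the hippocampus and the study's methods the cortex. The methods give 2 different ages of the culture at which RNA was taken and the labels none, so the stage of maturation behind these values is not settled. The neurons carried lentivirus with dCas9-VP160, a Cas9 that cannot cut and that activates the promoter its guide points to, driven by Ef1α, a promoter active in all cell types. Ctrl-dCas9A (3 libraries) had the sgLacZ guide, named for the bacterial lacZ gene, and Kcna1-dCas9A (3 libraries) had the sg19 guide at the promoter of *Kcna1*, which encodes the potassium channel Kv1.1, so that both groups carried the activator and only the guide differed. The methods state in general terms that experiments were repeated independently, but neither they nor the labels tie these libraries to separate cultures, so each p-value measures the spread between these libraries, which may be technical.

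Microtubules are hollow polymers of α- and β-tubulin dimers, and each tubulin is encoded by several genes that differ mainly at the acidic C-terminal tail. Microtubule-associated proteins bind the polymer: MAP2 in dendrites and the cell body, tau (the product of *Mapt*) in axons, and doublecortin (*Dcx*) in migrating and newly formed neurons. Neurofilaments are intermediate filaments that accumulate as axons mature, whereas GAP-43 and stathmin-2 (SCG10) are concentrated in growing axons. Doublecortin is therefore widely used as a marker of young neurons, βIII-tubulin (*Tubb3*) as a marker of neurons in general, and neurofilaments as markers of later stages.

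Expression was measured by 3′ end sequencing, which yields about 1 read per transcript whatever its length, so that values of different genes could be set beside each other. The deposited values were whole numbers that summed to between 999047 and 999717 in each library, and are given below in these per-million units, written as units. Their sums point to values rescaled to a fixed total and rounded by the authors, which no source states. Sequencing depth cannot be read from them, and no counting interval is given. *Kcna1*, the targeted gene, had 16, 16 and 16 units in the Ctrl-dCas9A libraries against 68, 47 and 65 in the Kcna1-dCas9A libraries, a log2 fold change of 1.83 (SE 0.16, adjusted p = 0.0345), which is the direction the labels give. This call was lost when any library other than Ctrl-dCas9A replicate 3 was left out, with adjusted p between 0.112 and 0.143 and a log2 fold change between 1.73 and 1.99. All log2 fold changes are Kcna1-dCas9A minus Ctrl-dCas9A on log2(value + 1), from limma fitted across 19504 genes with Benjamini-Hochberg adjustment. A single predicted gene, *Gm42418*, held between 15.3% and 20.2% of each library. The neuronal marker *Rbfox3* was present in every library, at 126 to 133 units in Ctrl-dCas9A and 128 to 147 in Kcna1-dCas9A.

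The log2 fold changes of the 10 genes went in both directions, with 5 above 0 and 5 below. Of the 10, 8 did not overlap between the groups: *Tubb3*, *Mapt*, *Gap43* and *Nefl* were higher in all 3 Kcna1-dCas9A libraries than in any Ctrl-dCas9A library, and *Tubb2b*, *Tuba1a*, *Map2* and *Dcx* were lower. Among all genes tested, 22.2% did not overlap (8.98% higher and 13.3% lower), and among genes with a mean of at least 10 units, as all 10 genes had, 39.8% did not (15.9% higher and 23.9% lower). With 3 libraries a group, the exact two-sided permutation test cannot give a p below 0.1, which is its value for each of the 8. None of the 10 passed an adjusted p of 0.05, against 1.16% of all genes tested (0.349% higher and 0.81% lower). Of the 10, 7 had an unadjusted p under 0.05, against 23.2% of all genes tested. In the limma fit of genes with a mean of at least 10 units, 3326 of 8050 genes had such a p. When genes with a mean under 10 units were left out before the fit, 6 of the 10 passed, against 28.4% of the 8050 genes then tested (11.4% higher and 17% lower): *Tubb3*, *Gap43* and *Nefl* rose and *Tubb2b*, *Tuba1a* and *Dcx* fell. The scaling of the libraries moved the balance of all genes called, from 68 higher and 158 lower to 962 higher and 757 lower with median-of-ratios factors and to 1226 higher and 832 lower with upper-quartile factors. The sign of 9 of the 10 genes was the same under every scaling, and that of *Stmn2* turned under these factors. The median log2 fold change of the 10 was 0.04, beside −0.02 over all genes tested, and ran from 0.0 without Kcna1-dCas9A replicate 1 to 0.08 without Kcna1-dCas9A replicate 2. It was 0.06 without Ctrl-dCas9A replicate 3, 0.13 with median-of-ratios factors, 0.16 with upper-quartile factors and 0.15 with the GC correction described below, and the median over all genes tested turned to 0.02 and 0.03 under these 2 kinds of factors. The median absolute log2 fold change of the 10 was 0.46, beside 0.31 for genes with a mean of at least 10. In these bulk libraries, fewer cells of a type and less RNA per cell cannot be told apart.

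**Figure D1:**
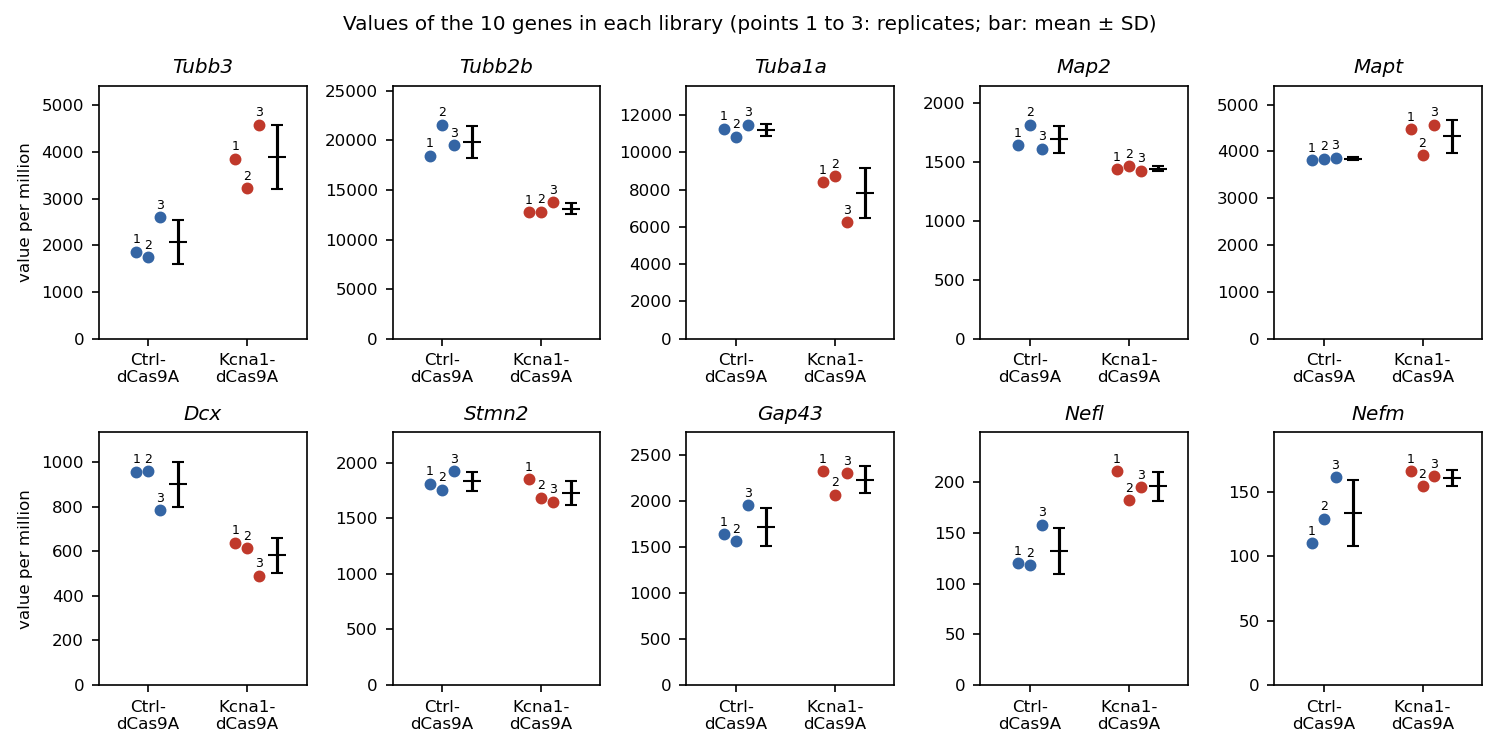
Value in per-million units of each of the 10 genes in each library, with the 3 libraries of each group as points, the mean ± SD beside them, and a y axis of its own from 0 for each gene. The *Tubb3* points of Kcna1-dCas9A lie between 3221 and 4591, all above Ctrl-dCas9A (1752 to 2605), whereas those of *Tubb2b* lie between 12793 and 13773, all below (18462 to 21613).

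*Tubb2b* and *Tuba1a* were the most abundant of the 10 genes in both groups. *Tubb2b*, a β-tubulin of developing brain that is not restricted to neurons, had 18462, 21613 and 19524 units in the Ctrl-dCas9A libraries against 12793, 12817 and 13773 in the Kcna1-dCas9A libraries. All 3 Kcna1-dCas9A values were below all Ctrl-dCas9A values, a log2 fold change of −0.60 (SE 0.12, adjusted p = 0.0553). *Tuba1a*, the main α-tubulin of newly formed neurons, had 11263, 10840 and 11492 units in the Ctrl-dCas9A libraries against 8392, 8728 and 6257 in the Kcna1-dCas9A libraries. It was lower in every Kcna1-dCas9A library, by −0.54 on the log2 scale (SE 0.15, adjusted p = 0.0857), and replicate 3 was the lowest.

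*Tubb3*, the β-tubulin largely restricted to neurons, showed the opposite pattern. It had 1862, 1752 and 2605 units in the Ctrl-dCas9A libraries against 3855, 3221 and 4591 in the Kcna1-dCas9A libraries. The groups did not overlap, and the mean in Kcna1-dCas9A (3889 ± 686, SD, n = 3) was 1.88 times that in Ctrl-dCas9A (2073 ± 464, SD, n = 3). This log2 fold change of 0.91 (SE 0.19, adjusted p = 0.0556) was the largest in absolute value of the 10.

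The coding sequences of these tubulins are close enough for reads to be shared between genes, so the last 90 coding bases of the β-tubulin genes up to the stop codon are shown, where the divergent tails are encoded. They were taken from the GENCODE vM1 transcripts on NCBIM37. Capitals in *Tubb2a* and *Tubb3* mark bases that differ from *Tubb2b* or have no *Tubb2b* base beside them in the alignment.
Tubb2b: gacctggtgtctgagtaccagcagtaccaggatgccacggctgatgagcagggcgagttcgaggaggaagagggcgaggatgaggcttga
Tubb2a: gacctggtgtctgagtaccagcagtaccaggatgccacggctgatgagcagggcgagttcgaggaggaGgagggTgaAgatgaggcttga
Tubb3: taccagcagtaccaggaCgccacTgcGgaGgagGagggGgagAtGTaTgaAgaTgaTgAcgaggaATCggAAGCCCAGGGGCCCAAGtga

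Over the whole coding sequence, *Tubb3* (1353 bases) was identical to *Tubb2b* (1338 bases) at 83.4% of aligned positions. *Tubb2a* was identical to *Tubb2b* at 96.5%, and *Tuba1b* was identical to *Tuba1a* at 98.3%. In the last 90 bases, 34 of *Tubb3* and 3 of *Tubb2a* were not matched by the same base of *Tubb2b*. The 34 include bases of the longer *Tubb3* that have no *Tubb2b* base beside them. Of the 426 windows of 75 bases, the read length, in the last 500 transcript bases, 91.1% of those of *Tubb3* matched the genome at exactly 1 position, as did 69.7% of those of *Tubb2b* and 45.3% of those of *Tuba1a*. The values of *Tubb2b* and *Tuba1a* are thus uncertain to the extent that reads of near-identical copies were split or dropped, and how multiply matching reads were treated is not given in the sources used here. For *Map2*, 83.1% of windows matched at 1 position and the others at none; for the remaining 6 genes all windows matched at 1 position.

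The summed β-tubulin values differed in make-up as well as in size. The 7 β-tubulin genes summed to 25343, 28017 and 25811 units in Ctrl-dCas9A and to 20394, 19927 and 21907 in Kcna1-dCas9A. *Tubb3* made up 7.35%, 6.25% and 10.1% of this sum in Ctrl-dCas9A and 18.9%, 16.2% and 21.0% in Kcna1-dCas9A. *Tubb2b* made up 72.8%, 77.1% and 75.6% and then 62.7%, 64.3% and 62.9%. Neither share overlapped between the groups. For *Tubb3* this follows from its higher values and the lower sum. The separation of the next ratio likewise follows from the single genes, as *Tubb2b* was lower in every Kcna1-dCas9A library. The ratio of *Tubb3* to *Tubb2b* was 0.101, 0.0811 and 0.133 in Ctrl-dCas9A and 0.301, 0.251 and 0.333 in Kcna1-dCas9A, and a ratio within a library does not depend on how libraries are scaled. *Tubb5*, a β-tubulin of most cell types, held 9.65% to 15.1% of the sum in Ctrl-dCas9A and 11.6% to 13.8% in Kcna1-dCas9A, which overlapped, as did *Tubb2a* (3.56% to 4.12%, then 3.13% to 4.04%). *Tubb4b* held a small share, at 0.45%, 0.464% and 0.883% and then 1.29%, 1.41% and 1.21%.

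**Figure D2:**
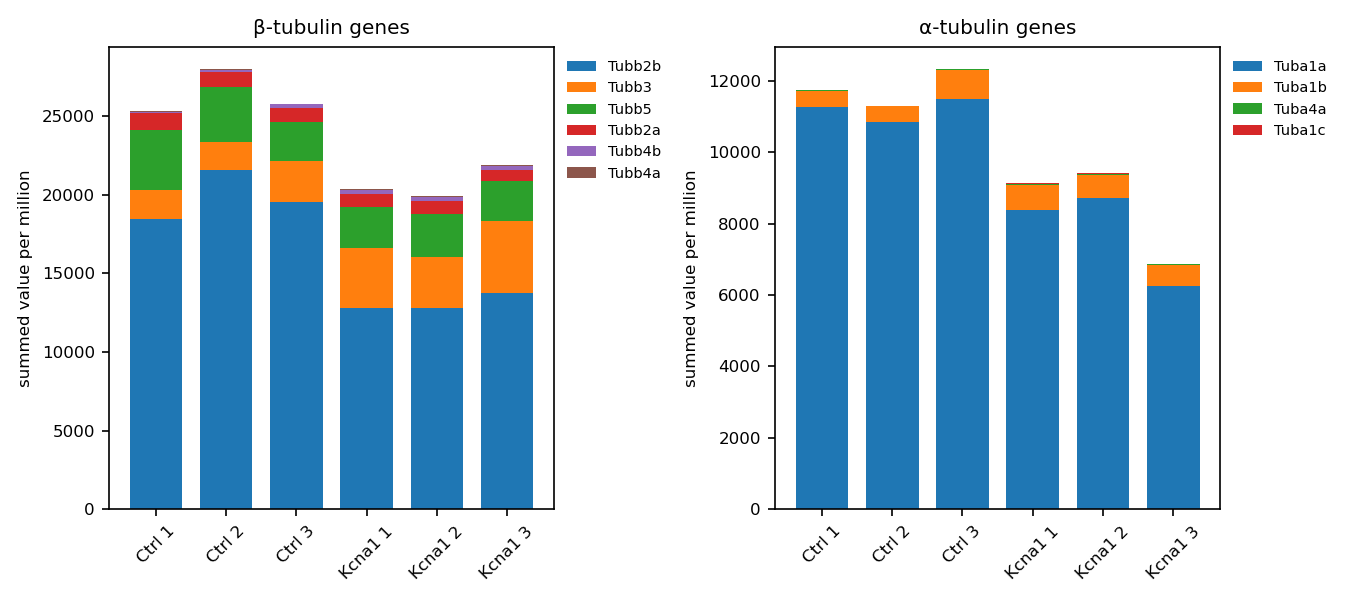
Stacked bars of the values in per-million units of the β-tubulin genes (left) and the α-tubulin genes (right), 1 bar per library and 1 colour per gene. *Tubb6*, at 0 or 1 in every library, and *Tuba8*, at 0, are not drawn. *Tubb3*, the second segment on the left, holds 6.25% to 10.1% in Ctrl-dCas9A and 16.2% to 21.0% in Kcna1-dCas9A.

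Among the α-tubulins, *Tuba1a* held 95.9%, 95.9% and 93.2% of the sum in Ctrl-dCas9A and 91.9%, 92.8% and 91.0% in Kcna1-dCas9A. *Tuba1b*, its near-identical copy, was at 451, 444 and 800 units and then at 699, 635 and 572, and the groups overlapped (log2 fold change 0.22, SE 0.23, adjusted p = 0.53). Ctrl-dCas9A replicate 3 was the highest library of *Tuba1b* and also the Ctrl-dCas9A library with the most *Tubb3*.

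Of the 13 tubulin genes besides the 3 above, 12 were tested and none passed in either direction. With a mean of at least 10, 4 of 9 passed as higher and 1 as lower. Of the 12, 4 did not overlap and were higher, 1 did not overlap and was lower, and their median log2 fold change was 0.10. This median was 0.18 with median-of-ratios factors, 0.21 with upper-quartile factors, 0.22 without Ctrl-dCas9A replicate 3, 0.17 without Kcna1-dCas9A replicate 3, 0.22 for genes with a mean of at least 1, and 0.41 over the 9 genes with a mean of at least 10 (0.44 with the GC correction). The most abundant was *Tubb5*, at 3827, 3489 and 2490 units in Ctrl-dCas9A and 2613, 2757 and 2532 in Kcna1-dCas9A (log2 fold change −0.29, SE 0.16, adjusted p = 0.332). *Tubb2a* was at 1043, 1000 and 919 and then at 816, 806 and 685, lower in every Kcna1-dCas9A library (log2 fold change −0.36, SE 0.10, adjusted p = 0.0915). *Tubb4b* was higher in every Kcna1-dCas9A library, at 114, 130 and 228 and then 264, 281 and 266 (log2 fold change 0.84, SE 0.24, adjusted p = 0.0943).

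The log2 fold changes of the microtubule-associated proteins also went in both directions, though none passed with all genes tested. *Map2* and *Mapt* passed under no setting tried. *Dcx* had 958, 961 and 785 units in the Ctrl-dCas9A libraries against 640, 614 and 491 in the Kcna1-dCas9A libraries. Every Kcna1-dCas9A library was below every Ctrl-dCas9A library, a log2 fold change of −0.63 (SE 0.14, adjusted p = 0.0556) and the most negative of the 10 in this fit. It was −0.39 (SE 0.13, adjusted p = 0.0347) when a correction for transcript GC content was added to the fit of genes with a mean of at least 10. *Tubb2b* was the most negative with that correction (−0.56), without Ctrl-dCas9A replicate 1 (−0.65) and without Kcna1-dCas9A replicate 3 (−0.63). The *Dcx* transcript had 40.56% GC, the lowest of the 10, and across 7738 genes GC content and log2 fold change had a Spearman's rho of 0.259 (a description; genes share the same 6 libraries and are no replicates).

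*Map2* was at 1643, 1819 and 1614 units and then at 1442, 1466 and 1427. The groups did not overlap but lay close together, and the log2 fold change was −0.23 (SE 0.09, adjusted p = 0.167). It was −0.14 with median-of-ratios factors, −0.11 with upper-quartile factors and −0.09 with the GC correction. *Mapt* had 3808, 3847 and 3870 units in the Ctrl-dCas9A libraries against 4471, 3917 and 4576 in the Kcna1-dCas9A libraries, with replicate 2 only just above the control values (log2 fold change 0.17, SE 0.10, adjusted p = 0.349, and 0.29 with upper-quartile factors).

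Within a library, *Dcx* was 0.583, 0.528 and 0.486 times *Map2* in Ctrl-dCas9A and 0.444, 0.419 and 0.344 times in Kcna1-dCas9A. *Mapt* was 2.32, 2.11 and 2.40 times *Map2* and then 3.10, 2.67 and 3.21 times. *Dcx* was 0.252, 0.25 and 0.203 times *Mapt* and then 0.143, 0.157 and 0.107 times. None of the 3 ratios overlapped between the groups. For *Mapt* to *Map2* and *Dcx* to *Mapt* this follows from the single genes, which lay apart in opposite directions. They were formed after the single genes had been seen, and are given as descriptions.

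Of the 22 other microtubule-associated proteins tested, none passed, and with a mean of at least 10, 3 of 20 passed as higher and 1 as lower. Of the 22, 6 did not overlap and were higher, 6 did not overlap and were lower, and the median log2 fold change was −0.02, which turned to 0.07 with median-of-ratios factors, 0.10 with upper-quartile factors and 0.15 with the GC correction, and lay between −0.06 (without Ctrl-dCas9A replicate 2) and 0.0 (without Ctrl-dCas9A replicate 3) when 1 library was left out. *Map1b*, an early axonal microtubule-associated protein and the most abundant of them, was at 2030, 2477 and 2881 units and then at 2974, 2546 and 2716, with overlapping groups. *Mapre1*, which encodes the plus-end binding protein EB1, was at 585, 573 and 634 and then at 651, 573 and 527, also overlapping.

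The growth-cone genes differed from each other. *Gap43*, a membrane phosphoprotein of growing axons, had 1637, 1563 and 1953 units in the Ctrl-dCas9A libraries against 2325, 2067 and 2303 in the Kcna1-dCas9A libraries. Its groups did not overlap (log2 fold change 0.38, SE 0.11, adjusted p = 0.101). *Stmn2*, a tubulin-binding stathmin, was at 1810, 1756 and 1924 and then at 1850, 1685 and 1648, which overlapped. Its log2 fold change was −0.08 (SE 0.09, adjusted p = 0.539), and it was 0.0044 with median-of-ratios factors, 0.04 with upper-quartile factors and 0.09 with the GC correction. Leaving out 1 library gave −0.13 to −0.05. *Gap43* was 0.904, 0.89 and 1.02 times *Stmn2* in Ctrl-dCas9A and 1.26, 1.23 and 1.40 times in Kcna1-dCas9A, so that *Gap43* was below *Stmn2* in Ctrl-dCas9A replicates 1 and 2 and above it in the other 4 libraries.

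Of the 16 other stathmins and growth-cone proteins tested, 1 passed, and with a mean of at least 10, 4 of 16 passed as higher and 4 as lower. The 1 was *Marcks*, an actin-binding substrate of protein kinase C, which fell from 1104, 1069 and 851 units to 650, 605 and 579 (log2 fold change −0.71, SE 0.12, adjusted p = 0.0497). Of the 16, 4 did not overlap and were higher and 4 were lower, with a median of −0.06 that turned to 0.03 and 0.06 with the same factors and was −0.02 without Kcna1-dCas9A replicate 2 or 3 and −0.03 without Ctrl-dCas9A replicate 1. *Basp1*, a growth-cone protein with features like GAP-43, was at 2867, 2611 and 2508 and then at 2598, 2247 and 2829. *Dpysl3*, a CRMP family protein of axon guidance, was at 2250, 2121 and 2535 and then at 2641, 2132 and 2443. Both overlapped.

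The neurofilament subunits were the least abundant of the 10. *Nefl*, the light subunit, had 120, 118 and 158 units in the Ctrl-dCas9A libraries against 211, 182 and 195 in the Kcna1-dCas9A libraries. The groups did not overlap (log2 fold change 0.58, SE 0.14, adjusted p = 0.0606). *Nefm*, the middle subunit, was at 110, 129 and 161 and then at 166, 154 and 162, overlapping through Ctrl-dCas9A replicate 3 (log2 fold change 0.28, SE 0.14, adjusted p = 0.271). It was 0.16 without Ctrl-dCas9A replicate 1 and 0.43 without Ctrl-dCas9A replicate 3. *Nefm* was 0.917, 1.09 and 1.02 times *Nefl* and then 0.787, 0.846 and 0.831 times. *Nefl* and *Nefm* overlap on opposite strands in the older gene models, and whether counting used strand is not given in the sources used here. In the same models *Tubb3* overlaps the protein-coding gene *Gm20388* on the same strand, and *Gm20388* was at 0 in every library.

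Of the 6 other intermediate filament genes tested, none passed (also none of the 4 with a mean of at least 10), and their median log2 fold change was 0.11. This median was 0.18 with median-of-ratios and 0.21 with upper-quartile factors, turned to −0.08 over the 4 genes with a mean of at least 10 (−0.09 with the GC correction), and ran from −0.15 without Kcna1-dCas9A replicate 3 to 0.23 without Kcna1-dCas9A replicate 2. It was 0.04 without Ctrl-dCas9A replicate 2, 0.19 without Ctrl-dCas9A replicate 1 and 0.18 without Kcna1-dCas9A replicate 1. *Ina*, which encodes the neuronal filament α-internexin, was at 353, 353 and 355 units and then at 453, 381 and 479, with groups that did not overlap (adjusted p = 0.139). *Vim*, the filament of glia and progenitors, was at 242, 255 and 210 and then at 239, 197 and 209, which overlapped. *Nefh*, the heavy subunit of late axons, was near the bottom of the range at 5, 4 and 5 and then 9, 9 and 8.

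**Figure D3:**
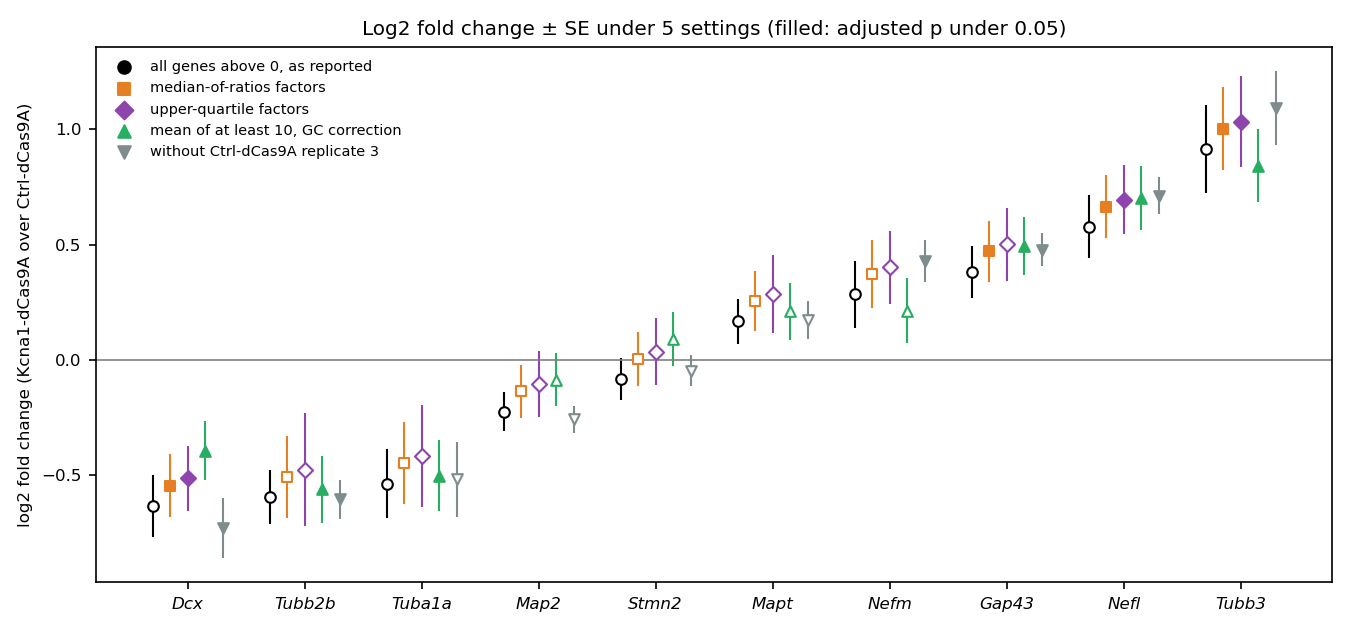
Log2 fold change (Kcna1-dCas9A minus Ctrl-dCas9A) of each of the 10 genes with its SE, as reported and under 4 other settings named in the legend, with filled symbols for an adjusted p under 0.05. As reported, all symbols are open, *Tubb3* is the highest at 0.91 and *Dcx* the lowest at −0.63, and *Stmn2* lies on both sides of 0 across the settings.

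The order of levels differed between the groups. In Ctrl-dCas9A it ran *Tubb2b*, *Tuba1a*, *Mapt*, then *Tubb3*, *Stmn2*, *Gap43* and *Map2*, whose neighbours overlapped in library range, then *Dcx*, and last *Nefm* and *Nefl*, which overlapped. In Kcna1-dCas9A it ran *Tubb2b*, *Tuba1a*, then *Mapt* and *Tubb3*, which overlapped, then *Gap43*, *Stmn2*, *Map2*, *Dcx*, *Nefl* and *Nefm*. Summed, the 10 genes made up 4.17%, 4.44% and 4.41% of the Ctrl-dCas9A libraries and 3.62%, 3.49% and 3.54% of the Kcna1-dCas9A libraries, and *Tubb2b* and *Tuba1a* carried most of that sum.

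One control library bore on these results. Ctrl-dCas9A replicate 3 was the control library nearest to the Kcna1-dCas9A mean for 7 of the 10 genes, and for 64.4% of the 7376 genes with a mean of at least 10 and a single nearest control library. Without it, 6 of the 10 passed, against 14.2% of all genes: *Tubb3* (log2 fold change 1.09), *Nefl* (0.71), *Gap43* (0.48) and *Nefm* (0.43) rose, and *Dcx* (−0.73) and *Tubb2b* (−0.61) fell. Without any other single library, limma called none of the 10 and 0 genes in all, with 3332 to 3853 genes at an unadjusted p under 0.05, so each gene outside the 10 that is named here as passing was also lost.

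Tubulin is folded and modified by dedicated enzymes, and motors move along the polymer. Of 15 tubulin cofactors and modifying enzymes tested, none passed, with a median of 0.14 that was 0.22 with median-of-ratios factors, 0.25 with upper-quartile factors and 0.01 without Ctrl-dCas9A replicate 1. With a mean of at least 10, 4 of 12 passed as higher and 1 as lower. *Tbca*, a β-tubulin folding cofactor, was at 438, 431 and 344 units and then at 306, 303 and 342, without overlap, and *Ttl*, the tubulin tyrosine ligase, was at 170, 196 and 247 and then at 222, 216 and 228. Of 19 motors and severing proteins tested, none passed, with a median of −0.07 that turned to 0.02 and 0.05 with the same factors and to 0.15 with the GC correction, and that lay between −0.10 and 0 when 1 library was left out (nearest 0 without Ctrl-dCas9A replicate 1, and −0.03 without Ctrl-dCas9A replicate 3 and −0.02 without Kcna1-dCas9A replicate 2). With a mean of at least 10, 6 of 17 passed as higher and 1 as lower. *Dync1h1*, the heavy chain of cytoplasmic dynein, was at 387, 482 and 1151 and then at 1985, 1686 and 2341 (log2 fold change 1.73, SE 0.38, adjusted p = 0.0556), a larger difference than for any of the 10, and its Ctrl-dCas9A replicate 3 again lay nearest to Kcna1-dCas9A. *Klc1*, a kinesin light chain, was at 618, 634 and 653 and then at 691, 783 and 693.

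Lists of genes for younger and older neurons were set beside the 10. Of 14 other genes high in young neurons, 1 passed: *Tmsb10*, an actin-binding thymosin, fell from 158, 160 and 149 units to 104, 99 and 100 (log2 fold change −0.62, SE 0.08, adjusted p = 0.0486). Of the 14, 7 did not overlap and all 7 were lower, with a median of −0.17 that was −0.09 with median-of-ratios factors and −0.05 with upper-quartile factors. With a mean of at least 10, none of 12 passed as higher and 5 as lower. The most abundant, *Sox11*, a transcription factor of newborn neurons, was at 3728, 3806 and 3413 and then at 3478, 3281 and 3398, and *Nrep* at 2046, 2049 and 1909 and then at 1852, 2129 and 1822. Both overlapped. Of 14 other genes that rise as neurons mature, none passed, and with a mean of at least 10, as all 14 had, 4 passed as higher and 1 as lower. Of the 14, 4 did not overlap and were higher, 2 did not overlap and were lower, and the median was 0.07. It was 0.16 with median-of-ratios factors, 0.18 with upper-quartile factors, 0.15 with the GC correction and 0.16 without Ctrl-dCas9A replicate 3, and 0.11 without either Kcna1-dCas9A replicate 2 or replicate 3. *Uchl1*, a neuronal ubiquitin hydrolase, was at 1620, 1457 and 1593 and then at 1974, 1870 and 2311 (log2 fold change 0.39, adjusted p = 0.0848).

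**Figure D4:**
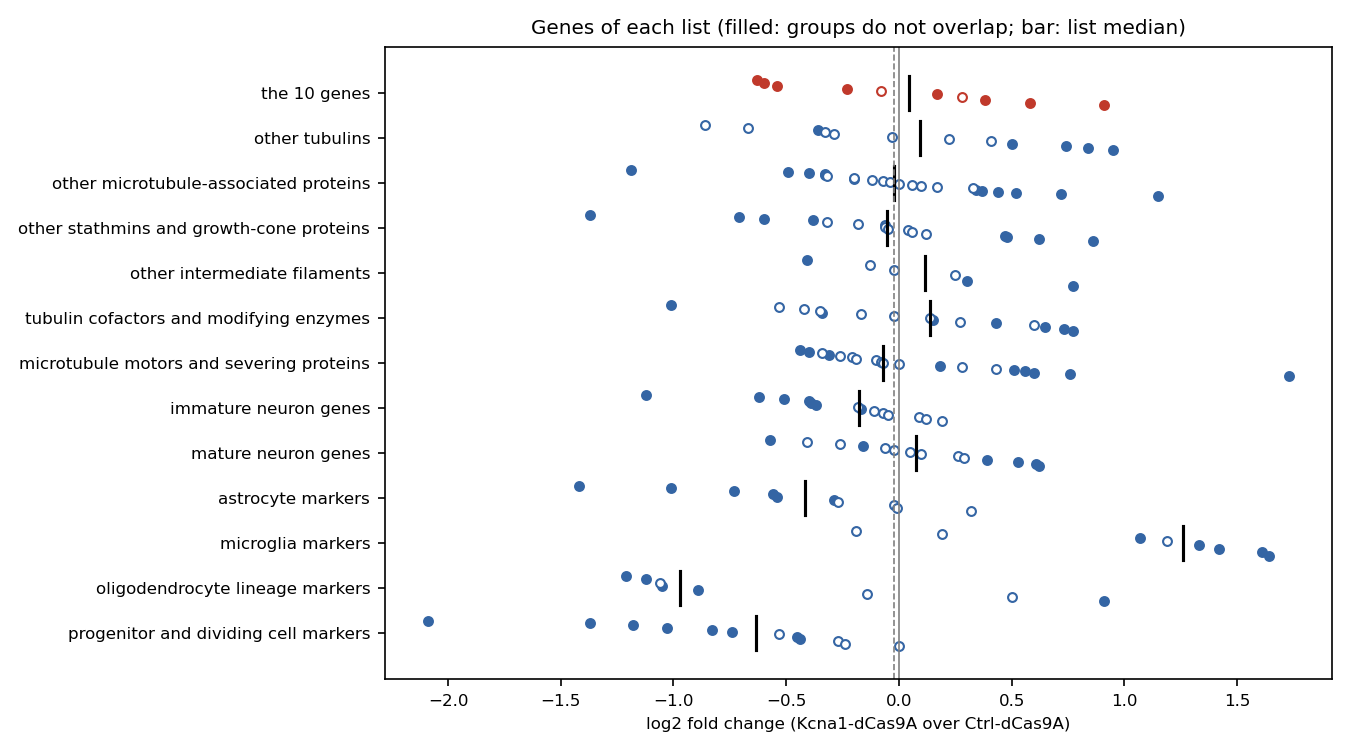
Log2 fold change of every tested gene in each list, 1 point per gene (filled where the groups did not overlap), with a bar at the median of each list and a dashed line at the median of all genes tested, −0.02. The immature neuron genes have a median of −0.17, the mature neuron genes 0.07, and the progenitor and dividing cell markers −0.64.

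Markers of other cell types differed between the groups as well, and their part in the cytoskeleton results was not tested. The 12 progenitor and dividing cell markers summed to between 717 and 1004 units in Ctrl-dCas9A and between 317 and 375 in Kcna1-dCas9A. Of these, 8 did not overlap, all lower, and 2 passed, *Fabp7* (635, 471 and 301, then 118, 82 and 117) and *Hes5* (197, 211 and 199, then 112, 114 and 115). Their median log2 fold change was −0.64. Over the 6 with a mean of at least 10 it was −0.44, and −0.26 under the GC correction. The 10 astrocyte markers summed to 961 to 1069 and then to 702 to 718. Of these, 6 did not overlap, all lower, and 3 fell, *Aqp4* (−1.42), *Aldoc* (−0.54) and *Sox9* (−0.56 on the log2 scale), and *Slc1a2* and *Slc1a3*, the most abundant, were also lower without overlap. The other 4 overlapped: *Gfap* (−0.02), *Aldh1l1* (−0.01), *S100b* (0.32) and *Fgfr3* (−0.27). The median of the astrocyte markers was −0.41, −0.30 with upper-quartile factors and −0.55 over the 8 with a mean of at least 10. The oligodendrocyte lineage markers summed to 72 to 104 and then to 47 to 51, and of the 8 tested 4 did not overlap and were lower and 1 was higher. *Olig2* fell (−1.05), *Olig1* was lower without overlap, and *Mog* was at 0 in every library. The higher gene was *Mbp*, at 3, 3 and 2 and then at 7, 4 and 7, and *Cnp* (log2 fold change 0.50) overlapped. The median of the 8 was −0.97. The microglia markers were few but higher, with sums of 23 to 28 and then 58 to 78, and of the 8 tested 5 did not overlap, all higher. *C1qa* rose from 9, 6 and 6 to 23, 22 and 24, *Aif1* was higher without overlap, and *Tmem119* and *P2ry12* were at 0 throughout. With a mean of at least 10, 2 of 6 progenitor and dividing cell markers, 5 of 8 astrocyte markers and 2 of 2 oligodendrocyte lineage markers passed as lower, and 2 of 2 microglia markers as higher.

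*Tubb3* and *Tuba1a* are shown by their upstream sequence because these tubulin genes differed in direction. The 250 bases before the RefSeq start (GRCm38.p6) are given for both on the strand of the gene. Capitals mark the letters searched on both strands, the GC box GGGCGG, the CCAAT box CCAAT and the TATA box TATAAA.
Tubb3 (chr8:123411303-123411552, plus strand): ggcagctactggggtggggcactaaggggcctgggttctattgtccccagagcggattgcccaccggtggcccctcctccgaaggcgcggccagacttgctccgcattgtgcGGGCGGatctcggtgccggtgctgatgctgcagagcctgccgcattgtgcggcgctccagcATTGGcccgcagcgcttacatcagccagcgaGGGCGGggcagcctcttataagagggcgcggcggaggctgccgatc
Tuba1a (chr15:98953502-98953751, minus strand): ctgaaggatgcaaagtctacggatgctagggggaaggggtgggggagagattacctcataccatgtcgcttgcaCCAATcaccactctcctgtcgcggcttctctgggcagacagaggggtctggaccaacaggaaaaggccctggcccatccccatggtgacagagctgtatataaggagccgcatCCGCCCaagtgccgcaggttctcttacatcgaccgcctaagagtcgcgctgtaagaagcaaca

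The *Tubb3* window had 68.0% GC, 21 CpG pairs, 2 GC boxes and 1 CCAAT box, and the *Tuba1a* window had 56.8% GC, 11 CpG pairs, 1 GC box and 1 CCAAT box. Neither held TATAAA. Among 32851 RefSeq promoter windows of the same length, 32.7% held a GC box, 33.8% a CCAAT box and 12.4% TATAAA, and the median GC content was 52.4%. The letters are descriptions of the windows, and no binding was measured here. *Tubb3* lies at chr8:123411553-123422015, *Tubb2b* at chr13:34127008-34130354, *Tuba1a* at chr15:98949847-98953501 and *Dcx* at chrX:143855842-143933396 on this build. *Nefl* (chr14:68083863-68089095) and *Nefm* (chr14:68119545-68125004) are neighbours on chromosome 14.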

How the data were processed

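RNA of 6 libraries (3 a group) was sequenced by the study from the 3′ end in 75-base stranded reads. Per the labels' processing notes the reads were handled with STAR 2.7, featureCounts and DESeq2 on mm10, whereas the study's methods name Bowtie2 and mm9, and the 2 accounts could not be reconciled. The deposited values are treated as score values: whole numbers the authors appear to have rescaled to a fixed total and rounded, taken from their sums, as no source states it. Depth is unknown and a count test was not used.

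Groups came from the labels. Values were transformed as log2(value + 1), with a pseudocount of 1, and genes above 0 in at least 1 library were compared with limma 3.58.1 in R 4.3.3 (lmFit, then eBayes with an intensity trend), with Benjamini-Hochberg adjustment and a threshold of 0.05. Other settings changed the scaling, pseudocount, filter, trend, replicate block and the libraries used. A correction for transcript GC content was added after the data had been seen. In tests on simulated data for this comparison, 85 of 200 genes with a log2 change of 1 were recovered among 18180 genes, and 0 of 200 with a change of 0.5 among 18188. With a mean of at least 10, 143 of 200 were recovered at 1 among 7977 genes, with 11 others called, against 3 others without that filter, and 0 of 200 at 0.5 among 8010. The simulation drew independent noise and changed only 200 genes, whereas 2289 of 8050 genes passed in the data with that filter. These recoveries therefore need not hold for the data. The 10 genes and all lists were chosen with earlier results of these data known. The text names the 10 genes, *Kcna1*, and in each further list the 2 genes with the highest mean and any gene past the threshold, except 1 gene that is not reported here. *Tuba1b*, *Tubb4b*, *Nefh*, *Rbfox3*, *Gm42418* and *Gm20388*, and the marker genes at 0, were named after their values were seen. So were *Gfap*, *Aldh1l1*, *S100b*, *Fgfr3*, *Mbp* and *Cnp*. Sequences came from GENCODE vM1 (NCBIM37) and RefSeq GRCm38.p6, and 4 of the 10 genes had a promoter window in the table used.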

Additional observations from a re-analysis of the deposited data

How the results depend on the processing

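Of 100 values of the 10 genes under other settings, 63 kept their direction and side of the threshold, 34 kept their direction and newly passed, and 3, all of *Stmn2*, turned. With median-of-ratios factors, *Tubb3* (1.0), *Dcx* (−0.55), *Nefl* (0.66) and *Gap43* (0.47) passed, *Stmn2* was 0.0044, the median of the 10 was 0.13, and 4 of the 10 and 1719 genes (8.81% of those tested) passed. With upper-quartile factors, *Tubb3* (1.03), *Dcx* (−0.52) and *Nefl* (0.70) passed, *Stmn2* was 0.04, the median was 0.16, and 3 of the 10 and 2058 genes (10.6%) passed. Over genes with a mean of at least 10, the median log2 fold change was −0.06, and 0.03 and 0.06 under these factors. With *Gm42418* left out, *Tubb3* (0.90), *Tubb2b* (−0.61), *Tuba1a* (−0.56), *Dcx* (−0.65) and *Nefl* (0.56), hence 5 of the 10, and 1814 genes (9.3%) passed. A mean of at least 1 gave 4 of the 10, *Tubb3* (0.91), *Tubb2b* (−0.60), *Dcx* (−0.63) and *Nefl* (0.58), and 1543 of 13604 genes (11.3%). A mean of at least 10 gave 6 of the 10, these 4 with the same values, *Tuba1a* (−0.54) and *Gap43* (0.38), and 2289 genes (28.4%), or 2230 (28.8%) among those with a GC value, with the same values for the 6. The GC correction, added after the data had been seen, gave 2067 genes (26.7%) and 6 of the 10, *Tubb3* (0.84), *Tubb2b* (−0.56), *Tuba1a* (−0.50), *Dcx* (−0.39), *Gap43* (0.49) and *Nefl* (0.70), with *Stmn2* at 0.09 and a median of 0.15. A pseudocount of 0.1 gave 627 genes (3.21%), and no trend 201 (1.03%), with 0 of the 10 in either. Fewer genes share the adjustment under the filters, and the cause of the other moves was not tested.

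The replicate block gave 0 genes by limma (4326 at an unadjusted p under 0.05) and 0 of the 10, and *Kcna1* stayed at 1.83 with adjusted p = 0.111. The numbers were not taken as pairing the libraries: deviations of same-numbered libraries correlated at 0.0143, 0.114 and 0.154 over 8050 genes, and Ctrl-dCas9A replicate 1 correlated best with Kcna1-dCas9A replicate 2. Leaving out 1 library gave *Tubb3* 0.79 to 1.09, *Tubb2b* −0.65 to −0.53, *Tuba1a* −0.63 to −0.39, *Map2* −0.26 to −0.17, *Mapt* 0.12 to 0.24, *Dcx* −0.73 to −0.52, *Stmn2* −0.13 to −0.05, *Gap43* 0.32 to 0.48, *Nefl* 0.50 to 0.71, *Nefm* 0.16 to 0.43, *Kcna1* 1.73 to 1.99, a median of the 10 of 0.0 to 0.08, and 0 to 2711 genes and 0 to 6 of the 10 past the threshold. Depth is unknown, so no difference can be called absent.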
